A study of Brassica rapa with 36 samples.

Results

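Microspores of the Brassica rapa line K2 that had received a heat shock were compared with late unicellular microspores of the same line. The members were the 3 libraries labelled as K2 microspores after heat shock and the 3 labelled as K2 late unicellular microspores, so 6 of the 36 libraries of the series, with every gene ID of their count tables. The series covers androgenesis in K2, which it describes as inducible, and in 49CX, which it describes as non-inducible. Besides these 6 libraries it holds K2 microspores without heat shock, K2 leaf, pollen and 2-, 4- and 8-cell embryos, and heated, unheated and late microspores and leaf of 49CX, with 3 libraries a group. Both groups compared here carry the K2 genotype and no other treatment is named for them. The labels give neither the temperature and length of the heat shock nor the culture that went with it, so heat and the time passed since the late stage cannot be told apart in this comparison alone.

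A microspore is the haploid cell that meiosis leaves in the anther. Normally it enlarges, divides unequally and matures into a pollen grain. In several Brassica species a stress such as heat, given around the time of this division, can turn some microspores towards embryo formation, a route known as androgenesis that breeders use to obtain doubled haploid plants. Heat also evokes in most plant cells a rapid transcription of chaperone genes driven by heat shock factors.

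The heated libraries held 462704, 208244 and 231485 gene counts, and the late libraries 529458, 216693 and 216793. Pearson correlations of log2 CPM (counts divided by library size and set on 1 scale) between replicates ran from 0.881 to 0.921 in heated and from 0.914 to 0.937 in late microspores. Late replicates 2 and 3 differed least: over 5483 genes, chi-square divided by its degrees of freedom was 1.04 (p = 0.0216, and genes are not independent replicates). They were kept as 2 libraries. Reads in no annotated gene made up 62.7%, 63.0% and 64.5% in heated libraries, against 69.6%, 83.5% and 77.1% in late libraries, with no overlap (exact 2-sided permutation test, p = 0.1, the smallest that 3 against 3 allows). This share thus differed between the groups compared, and its part in the results below was not tested. The gene IDs carry no names in the files, and 0 of the 47135 matched the RefSeq gene table used, so heat shock genes and stage markers could not be looked up to check the labels. Whether replicates are separate plants or cultures is not in the labels, so the spread behind the p-values may be technical.

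Heated K2 microspores held a broadly different transcript population from late ones. Of 9376 genes tested across the 18 microspore libraries, 4119 were called (43.9%), 1916 higher in heated microspores (20.4%) and 2203 lower (23.5%; adjusted p under 0.05 by the quasi-likelihood test of edgeR with Benjamini-Hochberg adjustment). Genes called higher together held 29.0% ± 1.25 of gene counts in heated and 8.74% ± 0.360 in late microspores (SD, n = 3 each). Genes called lower held 8.90% ± 0.146 in heated and 34.5% ± 0.544 in late microspores. These shares describe lists chosen on the same libraries and test nothing. The CPM of the 3 heated and 3 late libraries did not overlap for 4842 genes (51.6%).

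Many of the changes were large. By at least 2-fold, 1558 genes were called higher and 1848 lower. By at least 4-fold these numbers were 704 (7.51%) and 1052 (11.2%), by at least 16-fold 258 and 342, and by at least 64-fold 96 and 96. The losses outnumbered the gains most at 4-fold, and the numbers were equal at 64-fold. The median log2 change over all genes tested was -0.02, with 5% of genes below -3.56 and 5% above 2.74. Scaling by library size alone moved this median by 0.12 and turned the split, to 2224 called higher and 1923 lower. The split also came out near even with no filter on low counts, at 3010 higher and 2980 lower, while DESeq2's size factors gave 1924 higher and 2192 lower.

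How often a gene was called differed with its level. Among 516 genes with a mean log2 CPM under 4, 10.7% were called, and among 402 genes at 8 or more, 57.5% were. The called genes of the lowest level had a median absolute log2 change of 3.56, and those of the highest level 0.96.

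**Figure D1:**
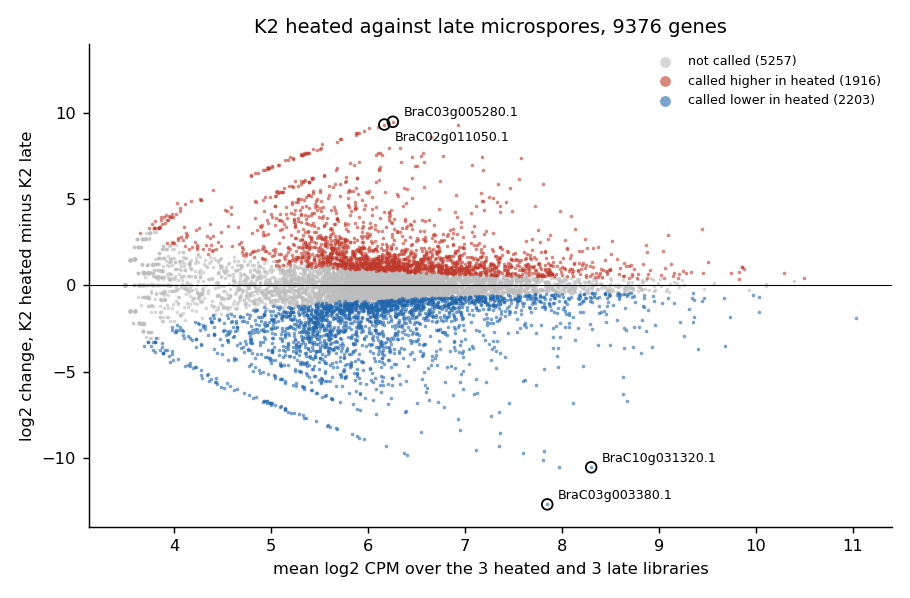
Log2 change (K2 heated minus K2 late) against mean log2 CPM over the 6 libraries, 1 point for each of 9376 genes: 1916 were called higher in heated microspores (red), 2203 lower (blue) and 5257 were not called (grey). The circled points are the IDs described next, with log2 changes of 9.49, 9.33, -12.70 and -10.55.

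The 2 IDs raised most and the 2 lowered most are given here as the measured extremes, among 1767 raised and 2087 lowered IDs that met the rule for naming. Their functions are not known from the files. The K2 change chose them, so its p-values describe them and test nothing further. BraC03g005280.1 had 164, 93 and 122 counts in heated libraries and 0 in each late library. Scaled by TMM, these were 423, 509 and 600 CPM, or 511 ± 88.5 CPM in heated microspores (SD, n = 3), at least 135-fold above the floor of 3 counts over the late group (3.78 CPM). Its log2 change was 9.49 (SE 0.55, adjusted p = 4.16e-45, edgeR), a fitted value that depends on the prior count. The transcript was therefore seen in every heated library and in no late one. In K2 without heat shock it had 1 count in all, so it also stood apart from the unheated microspores of the same line.

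BraC02g011050.1 was the other ID raised most, with 195, 73 and 90 counts in heated libraries and 0 in each late library. It had 503, 399 and 443 CPM in heated microspores (448 ± 52.0, SD, n = 3), at least 119-fold above the late floor, with a log2 change of 9.33 (SE 0.56, adjusted p = 5.1e-43, edgeR). The groups did not overlap. Unheated K2 had 4 counts, all in 1 library, and the embryos 3, 1 and 7 counts at the 2-, 4- and 8-cell stages. The embryo libraries are shallow, with 6021 to 170479 gene counts each, so single counts there carry little weight.

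BraC03g003380.1 was lowered most. It had 0 counts in each heated library and 2095, 832 and 812 in the late libraries. The late level was 4752, 4841 and 4470 CPM (4688 ± 194, SD, n = 3), so heated microspores were at least 1209-fold lower, counted from a floor of 3 counts over the heated group (3.88 CPM). The log2 change was -12.70 (SE 0.36, adjusted p = 5.59e-107, edgeR). Unheated K2 microspores held 56.5 ± 3.98 CPM of it, far below late microspores and above the heated floor.

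BraC10g031320.1 came next, with 2, 0 and 1 counts in heated libraries and 3004, 1197 and 1241 in late libraries. Its level was 3.36 ± 2.91 CPM in heated and 6870 ± 82.5 CPM in late microspores (SD, n = 3). The ratio of late over heated was 1767, with an exact 95% interval of 604 to 8573 that covers counting error only. The log2 change was -10.55 (SE 0.28, adjusted p = 2.04e-115, edgeR). In unheated K2 it stood at 127 ± 12 CPM. Both lowered IDs were among the 50 most abundant transcripts of late microspores, and both were low or missing in K2 leaf, with 0 and 5 counts in all.

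**Figure D2:**
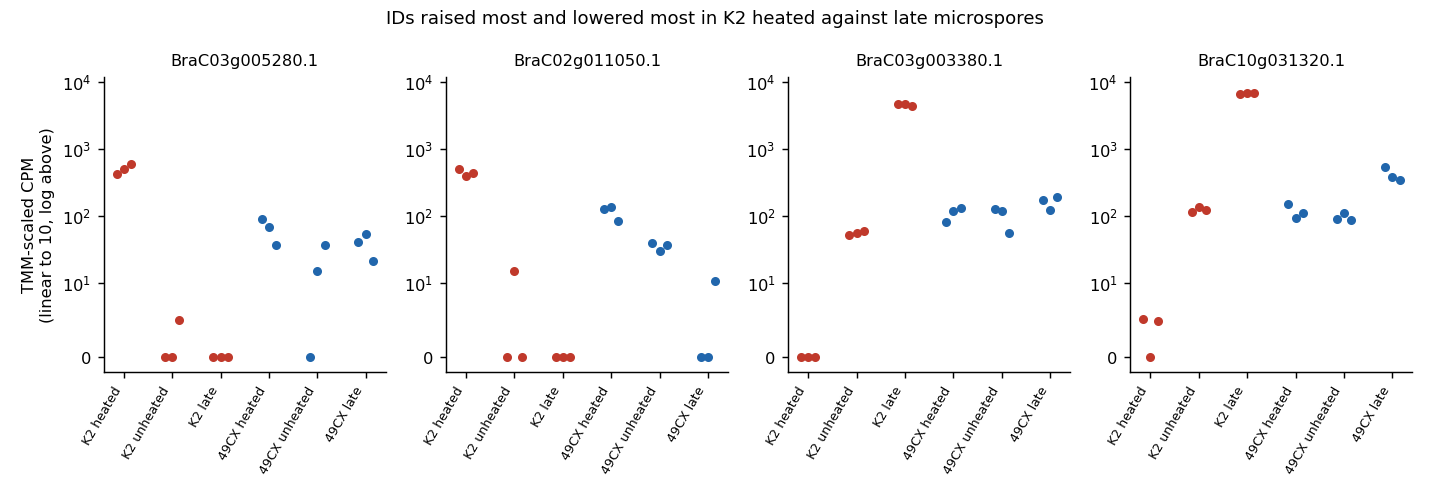
TMM-scaled CPM (linear to 10, logarithmic above) of the 2 IDs raised most and the 2 lowered most, 1 point per library, in heated, unheated and late microspores of K2 (red) and 49CX (blue). In K2 each raised ID lies at 399 CPM or more in all 3 heated libraries and at 0 in all 3 late ones, and each lowered ID lies at 5.16 CPM or less in all 3 heated libraries and at 4470 CPM or more in all late ones.

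The heated transcript population was less concentrated on a few abundant genes. The 50 most abundant genes of each library held 4.73%, 5.17% and 4.12% of gene counts in heated libraries (4.68% ± 0.526), against 8.05%, 7.80% and 7.83% in late libraries (7.89% ± 0.137, SD, n = 3 each). The groups did not overlap (exact 2-sided permutation test, p = 0.1). Unheated K2 microspores stood above both, at 11.9% ± 0.154. With the 200 most abundant genes the shares were 11.4% in heated and 15.3% in late microspores.

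Most of the genes that were most abundant at the late stage were lower in heated microspores. The 50 genes with the highest mean in late microspores held 1.23% ± 0.0244 of gene counts in heated and 7.87% ± 0.129 in late libraries (SD, n = 3 each), with 45 called lower and 1 higher. They were also scarce elsewhere in K2, at 1.95% ± 0.0313 in unheated microspores, 0.425% ± 0.0710, 0.431% ± 0.145 and 0.410% ± 0.108 in 2-, 4- and 8-cell embryos, 0.160% in the single pollen library with gene counts and 3.12% ± 0.134 in leaf. The 50 highest in heated microspores held 4.62% ± 0.597 there and 1.92% ± 0.0659 in late libraries, with 42 called higher and 3 lower. Being at the top of 1 group favours a difference in that direction, so these counts describe the lists only.

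The number of different genes detected did not separate the groups at the greater of the 2 depths tried. At a common depth of 50000 counts, 16620, 16163 and 16510 genes were expected in heated libraries (16431 ± 239), and 15276, 16530 and 15539 in late ones (15782 ± 661, SD, n = 3 each). The ranges overlapped (exact 2-sided permutation test, p = 0.3). At a depth of 5000 counts, where abundant genes weigh more, 3825 were expected in heated and 3668 in late microspores, with no overlap (p = 0.1 by the same exact test).

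Sets of gene IDs that mark K2 tissues were derived from leaf, pollen and embryo libraries, with no microspore library, since no named markers could be used. A member had to be at least 4-fold above both other tissues in its own, at an adjusted p under 0.05 (edgeR). This gave 382 pollen and 20 embryo IDs, and 1219 leaf IDs, of which 500 were kept. The pollen set rests on 1 library and has no replicate check. A set's share of counts can move because fewer cells of a kind are present or because each cell holds less of the RNA. A share over a whole library cannot tell these apart, and the labels do not give the number of cells per library.

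Leaf set transcripts were lower in heated microspores. They held 0.464%, 0.453% and 0.499% of gene counts in heated libraries (0.472% ± 0.0236), against 2.92%, 3.02% and 3.0% in late libraries (2.98% ± 0.0544, SD, n = 3 each), 6.31-fold lower and with no overlap (exact 2-sided permutation test, p = 0.1). Of the 176 members that passed the low-count filter, 164 were called lower and 1 higher, beside 23.5% and 20.4% of all genes tested. Their median log2 change was -3.56, against -0.02 over all genes tested. Of the 500 members, 469 had a count in heated and 494 in late libraries. A member could pass the filter through late K2 alone, which tilts the count towards lower. Without leaf set members, 1915 genes were called higher and 2039 lower among 9200 tested (43.0%), so they made up a small part of the genes lowered. The set kept 500 of 1219 eligible IDs, so this does not measure all leaf-high genes among those lowered. K2 microspores without heat shock held 0.993% of their counts in the leaf set, with 137 members called lower and 3 higher against the same late libraries (22.8% and 22.9% of all genes tested). In 49CX the set held 0.359% in heated and 0.705% in late microspores, so K2 late microspores stood above all the other microspore groups given here.

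Embryo set transcripts were higher in heated microspores. They held 0.250%, 0.221% and 0.302% of gene counts in heated libraries (0.258% ± 0.0408), against 0.0465%, 0.0457% and 0.0443% in late libraries (0.0455% ± 0.00111, SD, n = 3 each). The heated share was 5.67-fold higher, and the groups did not overlap (exact 2-sided permutation test, p = 0.1). All 20 members had a count in both groups, 2317 counts in heated and 441 in late microspores, and the largest member held 33.5% and 19.7% of them. Only 8 members passed the low-count filter, and all 8 were called higher, against 20.4% of all genes. High counts in heated K2 were enough for a member to pass, so this count tilts towards higher and supports nothing. The set rests on shallow embryo libraries and 1 pollen library. When the 3 embryo stages were fitted as separate groups, an alternative chosen after seeing the data, it had 209 members that held 1.36% in heated and 0.397% in late microspores, with 62 called higher and 5 lower of 82 that passed the same filter.

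Pollen set transcripts stood close to their late level. They held 0.783%, 0.802% and 0.769% of gene counts in heated libraries (0.785% ± 0.0166), against 0.941%, 0.885% and 0.872% in late libraries (0.899% ± 0.0368, SD, n = 3 each). The heated libraries were lower with no overlap (exact 2-sided permutation test, p = 0.1), by 0.115 percentage points. Of 275 members tested, 36 were called higher and 55 lower, 33.1% of them against 43.9% of all genes. Their median log2 change was 0.19, so the median and the share differ in sign. Microspores of K2 without heat shock held 4.74% of their counts in this set. Against the same late libraries 140 members were called higher and 14 lower, where 22.9% and 22.8% of all genes were. A member could pass the filter through unheated K2 alone, which tilts this count towards higher.

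**Figure D3:**
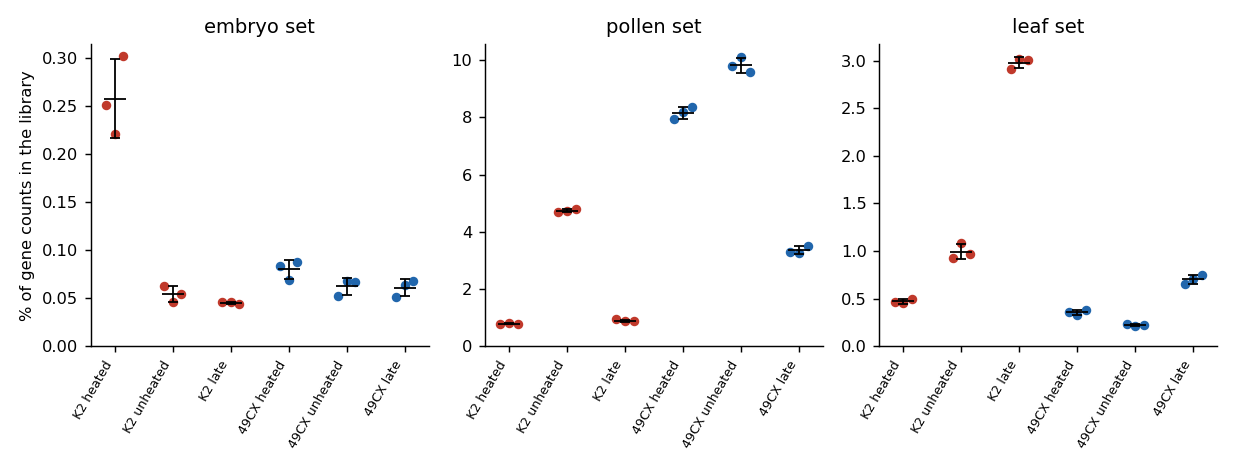
Share of gene counts (%, linear axis from 0, with its own scale for each set) held by the embryo, pollen and leaf sets, 1 point per library with the mean and SD of 3 libraries in black, in heated, unheated and late microspores of K2 (red) and 49CX (blue). In K2 the heated libraries lie above the late ones for the embryo set (0.258% against 0.0455% on average) and below them for the leaf set (0.472% against 2.98%), and close to them for the pollen set (0.785% against 0.899%).

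At equal depth, some transcripts were found in 1 of the groups only. With each of the 6 libraries thinned to 208244 counts, 281 IDs had at least 3 counts in every heated library and 0 in every late library, and 192 the reverse, out of 39668 IDs with any count (0.708% and 0.484%). They made up 2.49% of the 11289 IDs that reached 3 counts in every heated library and 1.68% of the 11421 that did so in every late library. Just outside the threshold, a minimum of 2 counts gave 433 and 300 IDs, and just inside it, a minimum of 4 gave 194 and 140. These numbers depend on which libraries must be at 0. Without late replicate 2 the first list grew to 470, and without heated replicate 1, 2 or 3 the second grew to 339, 307 or 337. At full depth 89 of the 281 had a count in late libraries, and 69 of the 192 had a count in heated libraries. Below, seen only in 1 group thus refers to equal depth.

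The IDs seen only in heated microspores held 1.63%, 1.60% and 1.71% of gene counts there, against 0.0213%, 0.000923% and 0.00277% in late libraries at full depth. Values in other tissues were not used to choose them. Their share was 5.31% ± 1.48 at the 2-cell, 3.81% ± 1.38 at the 4-cell and 6.36% ± 2.56 at the 8-cell stage of embryos (SD, n = 3 each), 0.159% ± 0.0114 in unheated K2 microspores, 0.241% in pollen and 0.178% ± 0.0498 in leaf. In 49CX they held 0.274% ± 0.00240 in heated and 0.151% ± 0.0167 in late microspores. Every embryo library, at 2.30% or more, lay above every heated, unheated, leaf and pollen library of K2. A few IDs carried much of this, since the largest member of each stage held 19.2%, 43.8% and 46.5% of the list's counts at the 2-, 4- and 8-cell stages. Without the 10 largest members of each group, the list held 1.30% in heated microspores, 1.65%, 1.11% and 1.57% in 2-, 4- and 8-cell embryos and 0.0782% in leaf. Embryos and heated microspores were then alike in size, both above leaf. In the fit of the K2 tissues, 122 of the 281 IDs passed the filter, and of these 101 were higher and 1 lower in embryo than in leaf (24.1% and 22.2% of all 10646 genes tested there). A member could pass this filter through the embryos alone.

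The IDs seen only in late microspores held 0.0253%, 0% and 0.00259% of gene counts in heated libraries at full depth, against 2.19%, 2.04% and 2.12% in late libraries. Their summed share was larger in the groups outside heated K2 and embryos. They held 2.08% ± 0.0818 in unheated K2 microspores, 0.828% ± 0.0692 in leaf and 1.39% in pollen. In 49CX they held 2.15% ± 0.295 in heated and 1.32% ± 0.0873 in late microspores. In 2-, 4- and 8-cell embryos they held 0.181% ± 0.10, 0.215% ± 0.0182 and 0.268% ± 0.261 (SD, n = 3 each). All 9 embryo libraries, at 0.569% or less, lay below every leaf, pollen, unheated and late library of K2. For pollen a few IDs carried this, since 10 members held 95.4% of its share and only 42 of the 192 had a count there. Without the 10 largest members of each group, the list held 0.0634% in pollen, 0.348% in leaf and 0.758% in unheated K2 microspores. In 2-, 4- and 8-cell embryos it then held 0.0583%, 0.110% and 0.0785%, so pollen lay within the range of the embryo stages. Of the 192 IDs, 21 belonged to the leaf set (10.9%) and 4 to the pollen set (2.08%). Among the 9376 genes tested these shares were 1.88% and 2.93%, but only 85 of the 192 were tested.

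**Figure D4:**
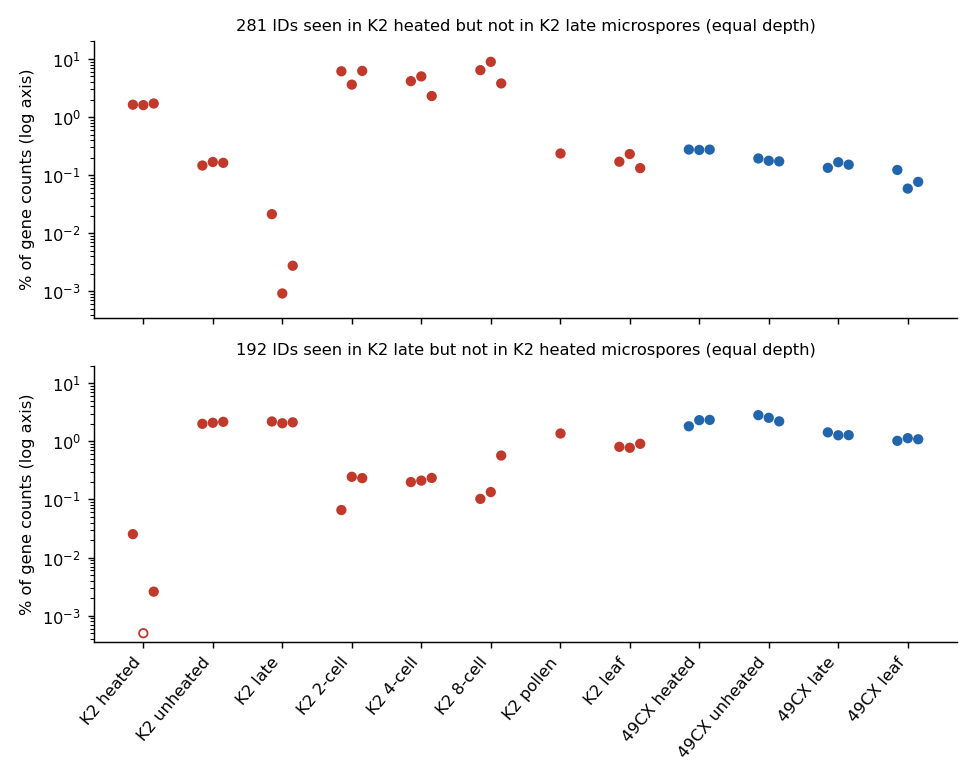
Share of gene counts (%, logarithmic axis) of the 281 IDs seen only in K2 heated and the 192 seen only in K2 late microspores. Both lists were chosen at equal depth, and the shares are at full depth in every group. There is 1 point per library (K2 red, 49CX blue), with an open circle at the bottom for a library at 0. The first list is highest in embryos (6.36% on average at the 8-cell stage). The second is low in heated K2 and embryos, at 0.569% or less, and higher in leaf, pollen and the other microspores. In pollen 10 of its members hold 95.4% of the share.

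The larger lists of called genes were also measured in tissues that had no part in choosing them. Genes raised at least 4-fold held 11.5% ± 0.605 of gene counts in heated and 0.956% ± 0.0430 in late microspores, the libraries that chose them. In 2-, 4- and 8-cell embryos they held 11.1% ± 1.17, 7.94% ± 1.10 and 10.9% ± 1.29, in the pollen library 7.44% and in leaf 1.78% ± 0.252 (SD, n = 3 except pollen). All embryo libraries were above all leaf libraries, and they overlapped the heated ones. Pollen lay above leaf and above the lowest embryo library (7.05%), unlike for the IDs seen only in heated microspores, where pollen was near leaf. In pollen 10 members held 53.4% of this share, and 251 of the 704 had a count there. Without the 10 largest members of each group, the list held 3.47% in pollen and 1.38% in leaf. The 2-, 4- and 8-cell embryos then held 7.49%, 5.37% and 7.22%, so pollen lay between leaf and the embryo stages. Of the 472 that passed the filter of the tissue fit, 262 were higher and 31 lower in embryo than in leaf, 55.5% and 6.57%. Among the 5911 genes tested in both fits, 1038 were higher (17.56%) and 1409 lower (23.8%). A member could pass the filter of the tissue fit through the embryos alone, which tilts the count of the list towards higher. Of the 704, 23 were in the pollen set (3.27%, beside 2.93% of all genes tested, so near the background). The embryo set held 5 of them, with 8 among all genes tested. The leaf set held 1 (0.142%, beside 1.88%).

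Genes lowered at least 4-fold held 1.51% ± 0.0374 of gene counts in heated and 19.3% ± 0.382 in late microspores. In embryos they held 3.35% ± 1.58, 3.67% ± 1.11 and 3.92% ± 2.04 at the 2-, 4- and 8-cell stages, against 21.4% ± 2.77 in leaf and 20.4% in pollen. Embryo libraries, at 6.22% or less, lay below all leaf libraries, at 18.4% or more. Of 468 that passed the filter of the tissue fit, 281 were lower (60.04%) and 100 higher (21.37%) in embryo than in leaf. Among the 5911 genes tested in both fits, 23.84% were lower and 17.56% higher. Both shares of the list thus lay above the background, the share of lower genes by far more. A member could pass the filter of the tissue fit through leaf alone, which tilts the count of the list towards lower. Leaf set members made up 139 of the 1052 (13.2%, beside 1.88% of all genes tested). Pollen set members made up 31 (2.95%, beside 2.93%, so at the background). Embryo set members made up 0, with only 8 among all genes tested.

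K2 microspores without heat shock were sequenced too, and the labels do not say whether they were sampled at the same time as the heated ones. Against the same late libraries, 4285 genes were called in them (45.7%), 2143 higher and 2142 lower. The late libraries are shared by both comparisons, so their values are only set side by side. The genes raised at least 4-fold in heated microspores had a median log2 change of 3.35 with heat and 0.74 without. Without heat 185 of them were called higher (26.3%) and 43 lower (6.11%), beside 22.9% and 22.8% of all genes tested. The genes lowered at least 4-fold had a median of -3.37 with heat and -1.02 without. Without heat 541 were called lower (51.4%, beside 22.8% of all genes) and 277 higher (26.3%, beside 22.9%, so near the background). Their levels in the unheated libraries, which did not choose them, were 2.21% ± 0.00327 of gene counts for the raised list, close to that of leaf, and 19.2% ± 0.15 for the lowered list, within the range of the late libraries. The summed share of the lowered list was thus at the late level without heat, although more of its members were called lower than higher.

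The same comparison was made in 49CX, with 3 heated and 3 late libraries of its own. There, 1925 genes were called (20.5%), 1213 higher in heated microspores (12.9%) and 712 lower (7.59%). By library size alone the 49CX split turned, to 935 higher and 1361 lower, and DESeq2's size factors gave 1319 and 593. The 49CX libraries were shallower, with 107928 to 162112 gene counts when heated and 85651 to 113517 at the late stage, so its smaller count is not by itself a smaller response. After thinning every microspore library to 85651 counts, the K2 comparison still called 1291 of the 3072 genes then tested (42.0%). No 49CX count is given at that depth, so the 1291 of K2 cannot be set against the 1925 of 49CX.

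The difference between the lines was tested directly. The change in K2 differed from that in 49CX for 2070 genes (22.1%), being higher in K2 for 929 (9.91%) and lower for 1141 (12.2%; interaction term, edgeR, adjusted p under 0.05). By library size alone the split was 1703 higher and 813 lower. Across 9376 genes the log2 changes of the lines correlated at 0.23 (Pearson) and 0.21 (Spearman), given as a description, since genes are not independent replicates.

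Genes called in both lines numbered 848, which is 20.6% of the K2 list and 44.1% of the 49CX list. Of all genes tested, 20.5% were called in 49CX and 43.9% in K2, so the overlap was at the background. Of these, 251 were raised in both, with median log2 changes of 2.32 in K2 and 2.40 in 49CX, and 319 were lowered in both, with medians of -2.18 and -1.74. The genes raised in both were 13.1% of those raised in K2, where 12.9% of all genes were raised in 49CX, and 20.7% of those raised in 49CX, where 20.4% of all genes were raised in K2. These shares too were at the background. The genes lowered in both were 14.5% of those lowered in K2, beside 7.59% of all genes, and 44.8% of those lowered in 49CX, beside 23.5% of all genes. By library size alone 201 genes were raised and 484 lowered in both, and with DESeq2's size factors 274 and 273. The remaining 278 went in opposite directions.

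Of the opposite genes, 195 were lowered in K2 (median -3.07) and raised in 49CX (median 1.61). Of the genes lowered in K2 they made up 8.85%, below the 12.9% of all genes raised in 49CX. Of those raised in 49CX they made up 16.1%, below the 23.5% of all genes lowered in K2. They held 0.446% ± 0.0163 of gene counts in heated and 2.12% ± 0.105 in late K2 microspores, against 15.1% ± 0.603 in heated and 6.78% ± 0.322 in late 49CX microspores (SD, n = 3 each). In libraries that did not choose them they held 10.9% ± 0.15 in unheated K2 microspores and 19.5% in pollen. The pollen set held 26 of them (13.3%, beside 2.93% of all genes tested). In leaf they held 0.559% ± 0.0171. The other 83 were raised in K2 (median 1.03) and lowered in 49CX (median -1.45). They made up 4.33% of those raised in K2, below the 7.59% of all genes lowered in 49CX. Of those lowered in 49CX they made up 11.7%, below the 20.4% of all genes raised in K2. In the tissue sets they had 0 members, where the pollen set held 2.93% and the leaf set 1.88% of all genes tested. These counts depended on the scaling. With DESeq2's size factors the lists held 216 and 69 genes, and by library size alone 120 and 217.

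**Figure D5:**
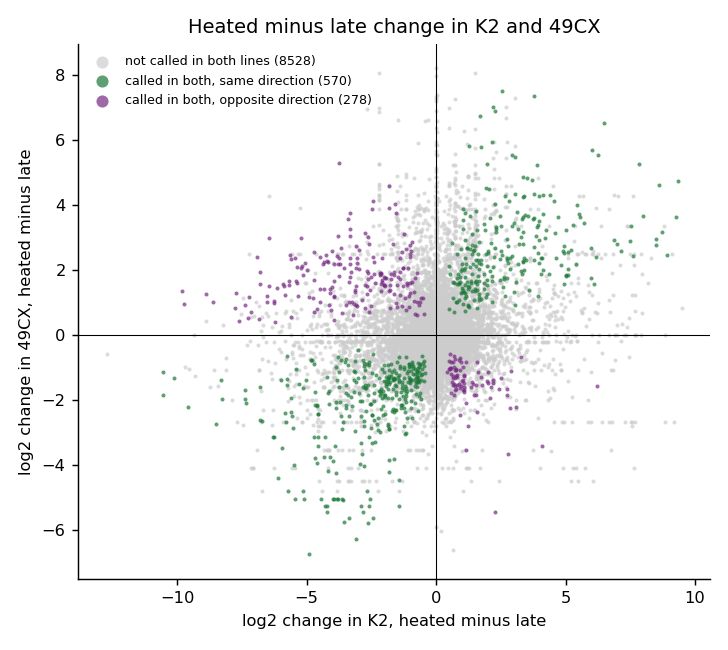
Log2 change in 49CX (heated minus late) against that in K2 (heated minus late) for 9376 genes. Genes called in both lines in the same direction are green (251 raised at the upper right, 319 lowered at the lower left), those called in opposite directions are purple (195 at the upper left, 83 at the lower right), and the remaining genes are grey.

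The tissue sets were set beside the same lines. In 49CX, 12.9% of all genes were called higher and 7.59% lower in heated microspores, and the interaction was called higher in K2 for 9.91% and lower for 12.2%. Of the 275 pollen set members tested, 179 were called higher and 3 lower in heated 49CX microspores, while 36 were higher and 55 lower in K2. The interaction was called lower in K2 for 90 and higher for 6. In 49CX its share of gene counts was 8.16% ± 0.205 in heated, 9.82% ± 0.262 in unheated and 3.36% ± 0.132 in late microspores (SD, n = 3 each), and so highest without heat shock. Of the 176 leaf set members, 23 were lower and 1 higher in 49CX, 13.6% of them against 20.5% of all genes, and the interaction was lower in K2 for 49 and higher for 1. Of the 8 embryo set members that passed the filter, 1 was called higher in 49CX, a share at the background, and the interaction was higher in K2 for 4. Leaf and embryo members could pass the filter through late or heated K2 alone, and pollen members through heated or unheated 49CX alone. This tilts the interaction counts, and for pollen the 49CX counts too.

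The named IDs were also measured in 49CX. They were chosen as extremes of the K2 change, which favours a gap between the lines in the same direction. The gaps are therefore given as a description and support nothing further. BraC03g005280.1 had 65.2 ± 26.9 CPM in heated and 39.1 ± 16.9 CPM in late 49CX microspores (SD, n = 3 each), a log2 change of 0.82, and the K2 change exceeded it by 8.66. BraC02g011050.1 had 116 ± 27.0 CPM in heated and 3.54 ± 6.13 CPM in late 49CX microspores. It rose in 49CX as well, by 4.74 (adjusted p = 3.65e-07, edgeR), and the K2 change exceeded this by 4.59 (SE 2.08). The interaction term did not call this gap. Late microspores held 0 counts of it in K2 and 1 in 49CX, so both fitted changes depend on the floor. BraC03g003380.1 had 112 ± 27.6 CPM in heated and 163 ± 35.6 CPM in late 49CX microspores, a log2 change of -0.59 that was not called (adjusted p = 0.241, edgeR), and K2 minus 49CX was -12.11. BraC10g031320.1 had 119 ± 30.7 CPM in heated and 427 ± 105 CPM in late 49CX microspores. It fell by 1.84 on the log2 scale in 49CX (adjusted p = 4.15e-09, edgeR), and K2 minus 49CX was -8.71. In late K2 microspores the lowered IDs had stood at 4688 and 6870 CPM.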

How the data were processed

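RNA was measured in 36 libraries, of which 6 are compared here. Each deposited table holds the raw counts of 1 library over gene IDs, not normalized. Strand-specific libraries were made from lysed isolated cells, per the labels' protocols. The submitters' processing notes name Trim Galore, HISAT2, Picard and HTSeq. Not given in the sources used here are tool versions, genome build, annotation and the strand setting of the counting. The authors' summary entries, which name no gene, entered neither library sizes nor tests. As a share of the reads counted in 1 gene, in several or in none, those in none made up 62.7% to 83.5% in the 6 libraries.

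The 18 microspore libraries were fitted together with edgeR 4.0.16 in R 4.3.3 (quasi-likelihood test, robust, TMM factors, filterByExpr on groups), with Benjamini-Hochberg adjustment over 9376 genes. The standard error is the log2 change divided by the root of the F statistic. CPM of single IDs were scaled by TMM to the counts in the genes tested. Shares of counts used library totals. Exact permutation tests compared single library values (scipy 1.17.1). Tissue sets came from a fit over K2 pollen replicate 1 (the other 2 pollen libraries held 0 gene counts), leaf and 9 embryo libraries as 1 group, where 1 pollen library takes its spread from the other groups. The leaf set kept 500 of 1219 eligible IDs. The fit was tested on simulated data with known changes.

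IDs were named by a rule: the 2 raised and the 2 lowered most, if called, not overlapping between the groups, and at a mean log2 CPM of 3 or more. Lists of named heat shock, embryo, pollen, tapetum, leaf, cell cycle, chromatin and hormone genes were not used, since IDs come without names in the files. The members and lists were chosen with earlier results of these data known. Counting error is all that floors of 3 counts and intervals cover, because reads are not independent molecules. Alternatives were DESeq2's size factors, library size alone, DESeq2 1.42.0's Wald test, no filter, only the groups compared, thinned counts, a replicate block, other set sizes, and leaving out each library.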

Additional observations from a re-analysis of the deposited data

Results flagged for a closer look

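The change between late and heated microspores differed between the lines for 2070 genes by the interaction term (edgeR's quasi-likelihood test, adjusted p under 0.05). Of the IDs described above, 3 were among them. The K2 change was above the 49CX change by 8.66 on the log2 scale for BraC03g005280.1. For BraC03g003380.1 the difference was -12.11 and for BraC10g031320.1 it was -8.71. These IDs were chosen for their K2 change and for no overlap between K2 heated and late libraries, which favours such differences, so they are no further support.

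Summed values moved in opposite directions in the lines, and these differences were not tested. The share of gene counts in the 50 most abundant genes was lower in K2 heated than in K2 late microspores by 3.22 percentage points (difference -3.22), with 4.68% in heated and 7.89% in late libraries. In 49CX it was higher in heated microspores, at 15.7%, than in late ones, at 9.44%. Without heat shock it was higher still, at 19.5% in unheated 49CX, and it was 11.9% in unheated K2. The pollen set's share was lower in K2 heated than in K2 late microspores (difference -0.115 percentage points). In 49CX it was higher in heated microspores, at 8.16%, than in late ones, at 3.36%, and unheated 49CX held 9.82%. Unheated K2 held 4.74%. In both measures the heated and late libraries of each line did not overlap.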

How the results depend on the processing

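The 4 named IDs kept their direction and call in all 52 alternatives run on them, with a highest adjusted p of 9.36e-13 (edgeR, or DESeq2's Wald test for that tool). Thinned to 85651 counts, 1291 of 3072 genes tested were called (515 higher, 776 lower), 1245 of them also called at full depth, and the difference between lines was called for 903 genes. Leaving out 1 library gave 3702 to 4206 genes called, 1829 to 2196 for the difference between lines, 68 to 96 pollen, 8 to 15 embryo and 169 to 192 leaf set members called, set shares differing by -0.128 to -0.0936, 0.190 to 0.231 and -2.54 to -2.49 percentage points for pollen, embryo and leaf, and 359 to 470 and 229 to 339 IDs seen only in heated or only in late microspores. The embryo count reached 14 or 15 without heated replicate 2 or late replicates 1, 2 or 3, when more members passed the filter. A minimum of 5 counts gave 145 and 111 IDs seen in 1 group only. With no filter on low counts, 16 embryo and 304 leaf set members were called. Sets of at most 200 members gave share differences of -0.0750 for pollen and -1.01 for leaf, and at least 8-fold members gave 0.0804 for embryo with 4 called. With embryo stages as separate groups, chosen after seeing the data, the share differences were -0.199 for pollen and 0.964 for embryo, with 67 embryo members called. The difference for the 200 most abundant genes was -3.86 percentage points. DESeq2's Wald test called 3356 genes, and only the 6 libraries gave 3650. The fit with no filter called 5990.

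Whether replicate numbers pair the libraries is not in the labels. The deviations of same-numbered heated and late libraries correlated at 0.007, -0.006 and 0.018. This cannot exclude pairing, because late replicates differed little beyond counting error, with chi-square over its degrees of freedom from 1.04 to 1.16. With the replicate block, 3983 genes were called, 1973 for the difference between lines, and 89 pollen, 8 embryo and 164 leaf set members. Genes of the lowest level were called least often, and the embryo libraries behind the embryo set are shallow.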

Other observations

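Mean log2 CPM of the microspore groups were compared over the 9376 genes tested. The correlations are descriptions across genes, which are not independent replicates, and the filter on low counts narrows the range of levels. K2 heated microspores were most like K2 late microspores, with a Pearson r of 0.425, and next 49CX late microspores, with 0.306. Their r was 0.173 with K2 unheated, 0.0573 with 49CX heated and -0.0202 with 49CX unheated microspores. K2 unheated microspores had 0.429 with K2 late, 0.617 with 49CX heated and 0.697 with 49CX late microspores. Within 49CX the heated group had 0.883 with the unheated and 0.618 with the late group. K2 late and 49CX late microspores had 0.500.

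The share of genes called between heated and late K2 microspores was even over the 10 BraC number prefixes of the IDs, from 42.0% for BraC09 to 46.7% for BraC02, with median log2 changes between -0.08 and 0.00.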
